A study of Ovis aries with 16 samples.

Results

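*SOD2* and *TXN2* encode 2 antioxidant proteins of the mitochondrion, and they are described here liver by liver. They were chosen by name, as 2 of the 26478 genes counted by RNA sequencing, with the identifiers ENSOARG00020006059 (*SOD2*) and ENSOARG00020021798 (*TXN2*). The RNA came from the livers of 16 Welsh Mountain sheep fetuses, 9 carried under normoxia (CON, 5 males and 4 females) and 7 under hypoxia (HOX, 3 males and 4 females). The HOX ewes breathed air low in oxygen for 30 days, and the labels place all 16 fetuses at 0.9 gestation, at about day 130, although the methods of the study give a different day. All fetuses were singletons, no genetic change or drug was used, and each library was made from the bulk liver of 1 fetus. The oxygen was lowered for the ewe, so that the fetal liver was exposed through the mother and the placenta. The question was whether the RNA of these mitochondrial defences differed between HOX and CON, and how far the answer rested on a single HOX liver.

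Superoxide is formed when electrons leak from the respiratory chain of the mitochondrion. *SOD2*, the manganese superoxide dismutase of the mitochondrial matrix, converts superoxide to hydrogen peroxide. *TXN2*, the mitochondrial thioredoxin, stands further down the same path. It passes electrons to peroxiredoxins such as *PRDX3*, which remove the peroxide, and it is reduced again by *TXNRD2*, the mitochondrial thioredoxin reductase. The liver is rich in mitochondria, and before birth it also makes red blood cells, so that a piece of fetal liver holds erythroid cells beside hepatocytes.

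The libraries held between 23955166 and 33952503 reads each. The deepest was that of HOX animal 1, a female fetus, and this library stood apart from the rest. On the first principal component of log2 expression, which took 25.6% of the variance, it lay at 64.4 while the other 15 livers lay between −15.6 and 6.23. It was the highest of the 16 livers in 21.9% of the 8580 genes that had at least 250 reads in at least 8 livers. The results for *SOD2* and *TXN2* are therefore given with and without that liver. Levels are in CPM, the reads of a gene relative to the total of its library after TMM scaling, and are not corrected for gene length. In bulk RNA, fewer cells of a type and less RNA per cell cannot be told apart.

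The mean level of *SOD2* was lower in HOX than in CON livers, by 20.2%, but not beyond the spread among animals when all 16 were counted. In CON livers its level ran from 49.8 CPM through a median of 67.3 to 91.8 CPM. In HOX livers it ran from 38.4 through 50.5 to 90.5 CPM. HOX animals 2 and 6 had the lowest *SOD2* of all, at 38.4 and 40.7 CPM. HOX animals 4 and 7 followed at 48.2 and 50.5 CPM, and HOX animals 5 and 3 had 58.0 and 62.8 CPM. These 6 livers all lay below the CON mean, and 3 of them lay below the lowest CON liver. HOX animal 1, at 90.5 CPM, stood instead among the highest controls, between CON animal 9 at 91.8 CPM and CON animal 4 at 88.7 CPM. The groups overlapped with or without it, because CON animals 1, 3 and 7 (58.4, 49.8 and 55.2 CPM) reached down into the HOX range.

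The mean level of *SOD2* was 69.6 ± 14.8 CPM in CON (SD, n = 9) and 55.6 ± 17.7 CPM in HOX (SD, n = 7). The log2 fold change was −0.33 (SE 0.173, 95% confidence interval −0.69 to 0.04), with an adjusted *P* of 0.458 by the quasi-likelihood test of edgeR. Genes were called at an adjusted *P* below 0.15, the threshold of the study, and *SOD2* was not called. At that threshold edgeR called 0.0583% of the genes lower in HOX. With HOX animal 1 left out, the HOX mean was 49.7 ± 9.50 CPM (SD, n = 6) and the log2 fold change was −0.48 (SE 0.149, 95% confidence interval −0.80 to −0.17). Its adjusted *P* was then 0.192 in edgeR, still above the threshold, against an unadjusted *P* of 0.00494. The study made its own calls with DESeq2 and not with edgeR. Here DESeq2 gave adjusted *P* values of 0.449 with 16 livers and 0.0797 without HOX animal 1. The call thus depended on both the liver and the tool.

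*TXN2* lay within a narrow band in all livers but 1, and its mean level was 4.07% lower in HOX than in CON, within the spread among animals. In CON livers it ran from 41.4 CPM through a median of 50.5 to 53.7 CPM. In HOX livers it ran from 38.9 through 43.4 to 76.3 CPM. The 6 HOX livers other than animal 1 lay within a few CPM of each other, with 38.9 CPM in animal 4, 41.4 in animal 5, 42.7 in animal 3, 43.4 in animal 6, 43.5 in animal 7 and 44.0 in animal 2. These 6 were below the CON mean, and 7 of the 9 CON livers lay above all of them. The exceptions were CON animals 2 and 6, both female, at 42.7 and 41.4 CPM. HOX animal 1 held 2620 reads of *TXN2*, or 76.3 CPM, which was 1.42 times the highest CON liver and 1.80 times the mean of the other HOX livers.

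The mean level of *TXN2* was 49.2 ± 4.32 CPM in CON (SD, n = 9) and 47.2 ± 13.0 CPM in HOX (SD, n = 7). The log2 fold change was −0.06 (SE 0.124, 95% confidence interval −0.32 to 0.20, edgeR adjusted *P* = 0.870), and its sign turned to 0.01 when libraries were scaled by their size alone. Without HOX animal 1 the HOX mean was 42.3 ± 1.90 CPM (SD, n = 6). The log2 fold change became −0.21 (SE 0.0714, 95% confidence interval −0.37 to −0.06), with an adjusted *P* of 0.208 in edgeR and of 0.116 in DESeq2. With all 16 livers the adjusted *P* of DESeq2 was 0.916. A single liver thus moved the value by more than its standard error, from close to 0 to a level of 13.9% below CON.

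**Figure D1:**
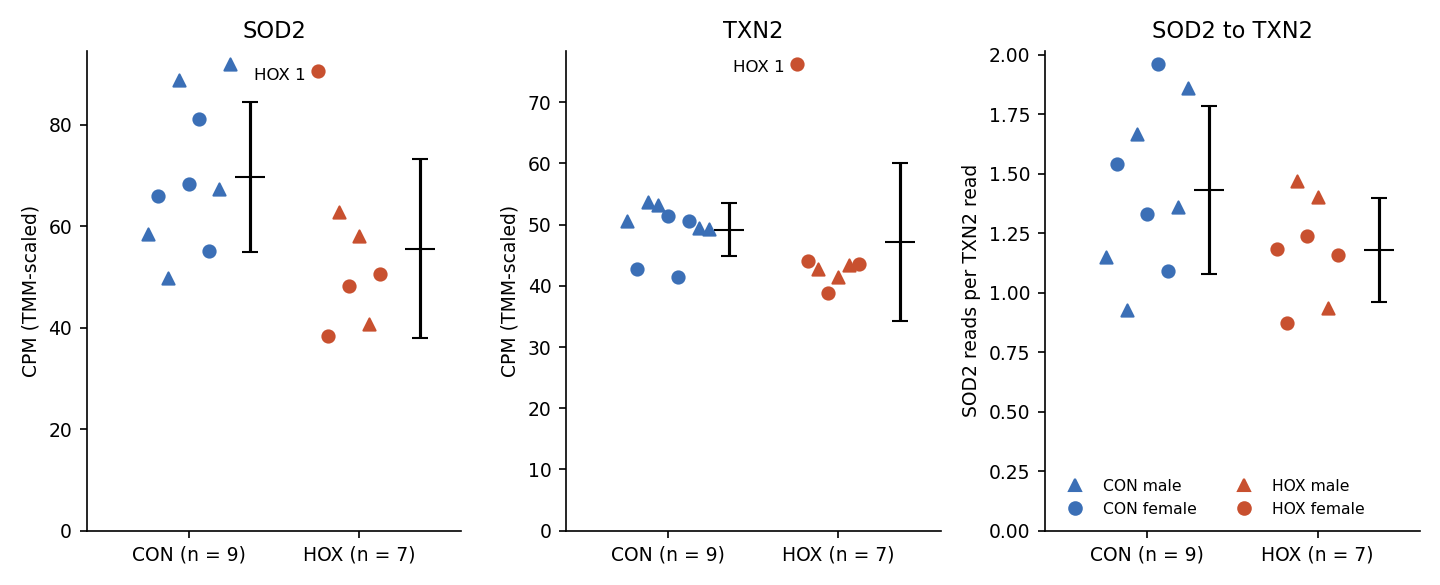
SOD2 (left) and TXN2 (middle) in CPM and the SOD2 reads per TXN2 read (right) in each of the 9 CON (blue) and 7 HOX (red) livers, with triangles for males and circles for females, and the mean ± SD in black. HOX animal 1 lies at 90.5 CPM for SOD2, within the CON range, and at 76.3 CPM for TXN2, above every CON liver, whereas the other 6 HOX livers lie between 38.4 and 62.8 CPM for SOD2 and between 38.9 and 44.0 CPM for TXN2.

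The share of genes called sets these results in context. Without HOX animal 1, edgeR called 0.106% of 8490 genes lower in HOX and DESeq2 called 3.56% lower, and neither *SOD2* nor *TXN2* was called by the first while both were called by the second. At an unadjusted *P* below 0.05, which both genes passed, edgeR had 8.37% of genes lower in HOX. With all 16 livers DESeq2 called 1.61% of genes lower, and limma-voom with a weight for each library called 1.11% lower. Neither gene was called by either tool at 16 livers. The weighted fit gave log2 fold changes of −0.44 for *SOD2* (adjusted *P* = 0.188) and −0.20 for *TXN2* (adjusted *P* = 0.226). Both genes had all 6 other HOX livers below the CON mean, as did 10.8% of the genes. Gene names were available only for genes that the study itself listed as changed in these livers, so that the direction of either gene is not independent evidence.

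An exact permutation test of each gene alone gave the same picture. For *SOD2* the difference in mean log2 CPM was −0.35 over 16 livers (two-sided exact permutation *P* = 0.0719) and −0.48 without HOX animal 1 (*P* = 0.00999, exact permutation). The corresponding differences for *TXN2* were −0.09 (*P* = 0.509, exact permutation) and −0.21 (*P* = 0.00539, exact permutation). These *P* values were not adjusted for the number of genes.

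Of the 16 livers, HOX animal 1 was the one whose removal moved both genes furthest. Leaving out each liver in turn moved the log2 fold change of *SOD2* between −0.48 and −0.24, and it was lower in HOX each time. That of *TXN2* moved between −0.21 and 0.0041. Its highest value came without HOX animal 4, the liver with the least *TXN2*, and was 0.0041 (SE 0.134), in effect 0. Once HOX animal 1 was out, leaving out any further liver kept both genes lower in HOX, from −0.55 to −0.41 for *SOD2* and from −0.24 to −0.18 for *TXN2*. In 1 of these fits, without HOX animal 5 as well, *SOD2* passed the threshold in edgeR (adjusted *P* = 0.129), and *TXN2* passed it in none.

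**Figure D2:**
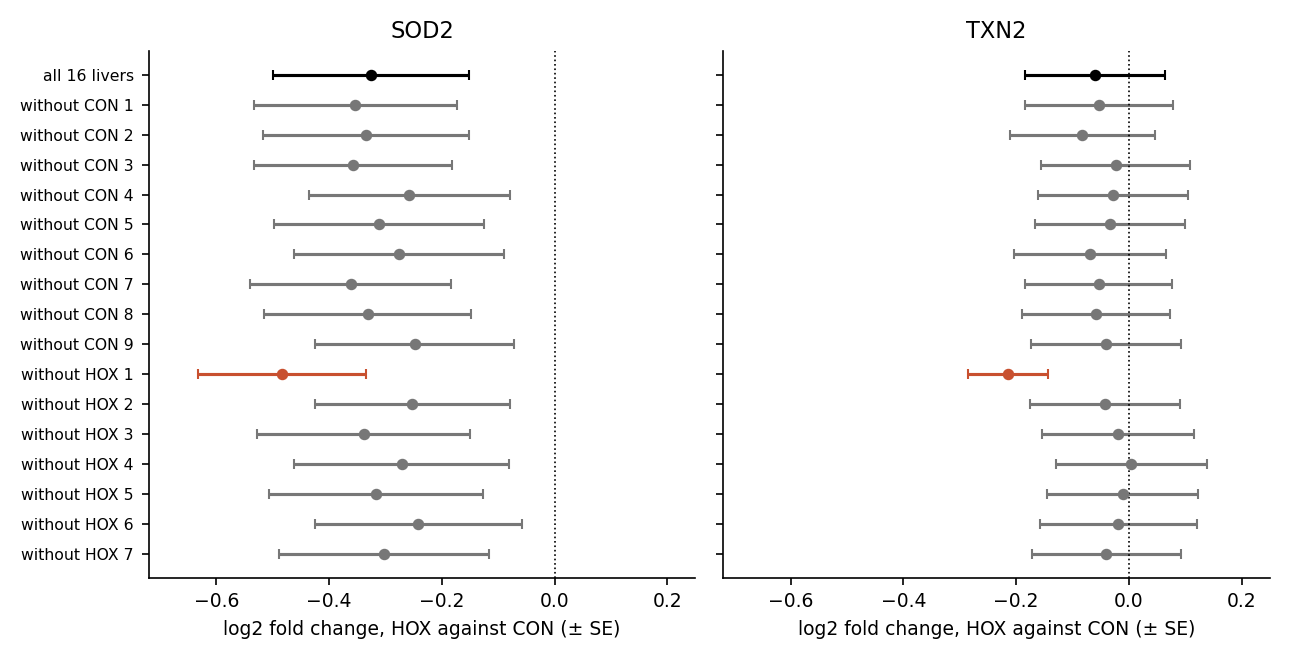
Log2 fold change of HOX against CON (± SE, edgeR) for SOD2 (left) and TXN2 (right) with all 16 livers (black) and with each liver left out in turn (grey, and red for HOX animal 1). SOD2 lies below 0 in every fit, from −0.48 to −0.24, and TXN2 moves from −0.06 to −0.21 without HOX animal 1.

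Fetal sex was recorded for each liver, although the study was not designed to compare the sexes. In male fetuses the *TXN2* level was 49.3 to 53.7 CPM in the 5 CON livers and 41.4 to 43.4 CPM in the 3 HOX livers, without overlap. Among all genes tested, 3.32% had every male HOX liver below every male CON liver. In females the ranges overlapped, since CON animals 2 and 6 and HOX animal 1 were all female. The log2 fold change of *TXN2* was −0.26 in males (SE 0.0955, edgeR adjusted *P* = 0.661) and 0.14 in females (SE 0.228, edgeR adjusted *P* = 0.907). For *SOD2* it was −0.40 in males (SE 0.225) and −0.23 in females (SE 0.269). The difference between the sexes was itself tested, and the male minus female log2 fold change was −0.40 for *TXN2* (SE 0.247, unadjusted *P* = 0.130) and −0.15 for *SOD2* (SE 0.368, unadjusted *P* = 0.681). Both had an edgeR adjusted *P* of 0.999. Without HOX animal 1 the difference between the sexes shrank to −0.12 for *TXN2* and turned to 0.18 for *SOD2*.

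The 2 genes differed in how much they varied among animals of one group. In CON the coefficient of variation was 21.2% for *SOD2* and 8.79% for *TXN2*, against a median of 16.5% over all genes tested. In all 7 HOX livers it was 31.8% for *SOD2* and 27.5% for *TXN2*. In the 6 HOX livers without animal 1, a set made narrower by leaving out the highest liver of both genes, it was 19.1% for *SOD2* and 4.49% for *TXN2*, against a median of 14.6%. The *TXN2* spread ranked at percentile 1.41 of the tested genes in those HOX livers and at percentile 7.95 in CON, while *SOD2* ranked at percentiles 69.9 and 69.3.

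The reads of *SOD2* per read of *TXN2* compare the 2 genes within a liver, where library size and scaling cancel. This ratio counts reads and not transcripts, since the genes differ in length. It was 1.43 on average in CON, from 0.927 in CON animal 3 to 1.96 in CON animal 6. In HOX it averaged 1.18, from 0.872 in animal 2 to 1.47 in animal 3. HOX animal 1, with 3107 *SOD2* reads and 2620 *TXN2* reads, had a ratio of 1.19, in the middle of its group. On the log2 scale the ratio was 0.48 ± 0.363 in CON (SD, n = 9) and 0.22 ± 0.278 in HOX (SD, n = 7), a difference of −0.26 that was within the spread among animals (two-sided exact permutation *P* = 0.137). Without HOX animal 1 the difference was −0.27 (exact permutation *P* = 0.162). Without CON animal 3, the control with the lowest ratio, it was −0.34 (exact permutation *P* = 0.0483). An unequal change of the 2 genes was not detectable with all livers.

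A correlation of the 2 genes from liver to liver was not detectable within either group. Over the 9 CON livers Pearson's r was −0.27 (exact permutation *P* = 0.488) and Spearman's rho was −0.33 (exact permutation *P* = 0.385). Without CON animals 2 and 6, which lay farthest from the median of *TXN2*, r was −0.23. Over the 7 HOX livers r was 0.75 (exact permutation *P* = 0.10) but rho was 0.07 (exact permutation *P* = 0.906). That r rested on HOX animal 1, for without it r was −0.30 (exact permutation *P* = 0.594) and rho was −0.49. Without HOX animals 1 and 4, the 2 livers farthest from the median of *TXN2*, r was −0.73 (exact permutation *P* = 0.167). After adjustment over the 3 correlations, the *P* values of r were 0.594 in CON, 0.301 in HOX and 0.594 in HOX without animal 1.

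**Figure D3:**
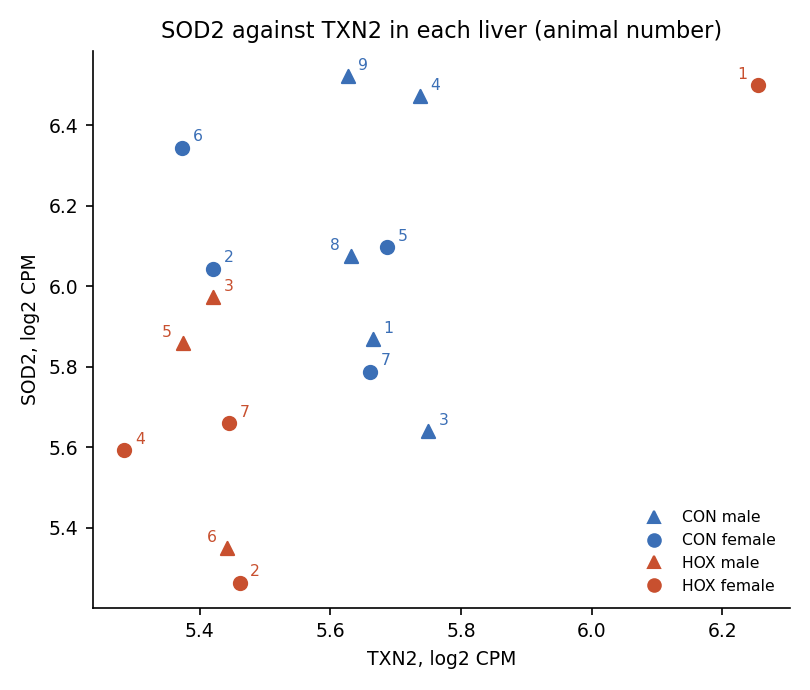
SOD2 against TXN2, both in log2 CPM, in each liver, with the animal number beside each point, CON in blue, HOX in red, males as triangles and females as circles. HOX animal 1 lies alone at the upper right, and within the other 6 HOX livers (r = −0.30) and the 9 CON livers (r = −0.27) there is no upward trend.

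The genes of antioxidant defence around *SOD2* and *TXN2* were then set beside them. Of a list of 41 such genes, 8 had a name in the gene table of the study, the members included, and all 8 passed the read minimum. Since that table lists genes the study found changed in these livers, the counts for the list are a description only. With all 16 livers 7 of the 8 had a log2 fold change below 0 and *TXNRD2* had one above 0. Their median was −0.26, and over all genes tested the median was 0.01 with 48.8% of genes below 0. None of the 8 was called by edgeR, and DESeq2 called *GLRX* and *ATOX1*, both lower, as it did 1.61% of all genes tested. Without HOX animal 1 the median of the list was −0.35 and that of all genes was −0.01. DESeq2 then called all 8, of which 7 were lower and *TXNRD2* was higher. Over all genes tested it called 3.56% lower and 2.6% higher. Again edgeR called none of them.

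*TXNRD2*, which returns *TXN2* to its reduced form, was the 1 gene of the list with a log2 fold change above 0. Its level was 36.3 ± 5.41 CPM in CON (SD, n = 9) and 49.5 ± 13.6 CPM in the HOX livers without animal 1 (SD, n = 6). HOX animal 1 had 20.9 CPM, the lowest of the 16 livers, in the same library that had the most *TXN2*. The log2 fold change was 0.33 with all livers (SE 0.186, edgeR adjusted *P* = 0.485) and 0.45 without HOX animal 1 (SE 0.143, edgeR adjusted *P* = 0.204, DESeq2 adjusted *P* = 0.111). Its HOX levels ran from 20.9 to 67.5 CPM and its CON levels from 27.6 to 44.6 CPM, so that the groups overlapped. *PRDX3*, which *TXN2* serves, had no name in the table and was not analysed here.

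The genes that DESeq2 called both with and without HOX animal 1 were *GLRX* and *ATOX1*, neither of which is a mitochondrial enzyme of the superoxide path. *GLRX*, the cytosolic glutaredoxin that removes glutathione from protein thiols, was 13.3 ± 2.79 CPM in CON (SD, n = 9) and 9.01 ± 2.10 CPM in HOX (SD, n = 7). Every HOX liver was under the CON mean, and the log2 fold change was −0.56 (edgeR adjusted *P* = 0.253, DESeq2 adjusted *P* = 0.0782), and −0.47 without HOX animal 1. *ATOX1*, a copper chaperone, was 90.8 ± 18.2 CPM in CON (SD, n = 9) and 67.0 ± 11.2 CPM in HOX (SD, n = 7). The same held for the 7 HOX livers of this gene, with a log2 fold change of −0.44 (edgeR adjusted *P* = 0.256, DESeq2 adjusted *P* = 0.0996), and of −0.42 without HOX animal 1. In HOX animal 1 these genes stood at 5.50 and 60.5 CPM, low and not high.

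The remaining 3 genes of the list followed the pattern of *SOD2* and *TXN2*. *SELENOS* and *SELENOF* encode selenoproteins of the endoplasmic reticulum, and *PARK7* encodes a redox-sensitive protein. Each had 6 of 7 HOX livers below the CON mean and its highest HOX level in animal 1, at 74.1, 53.1 and 109 CPM. Their log2 fold changes were −0.29, −0.19 and −0.23 with all livers, and −0.39, −0.30 and −0.32 without HOX animal 1.

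**Figure D4:**
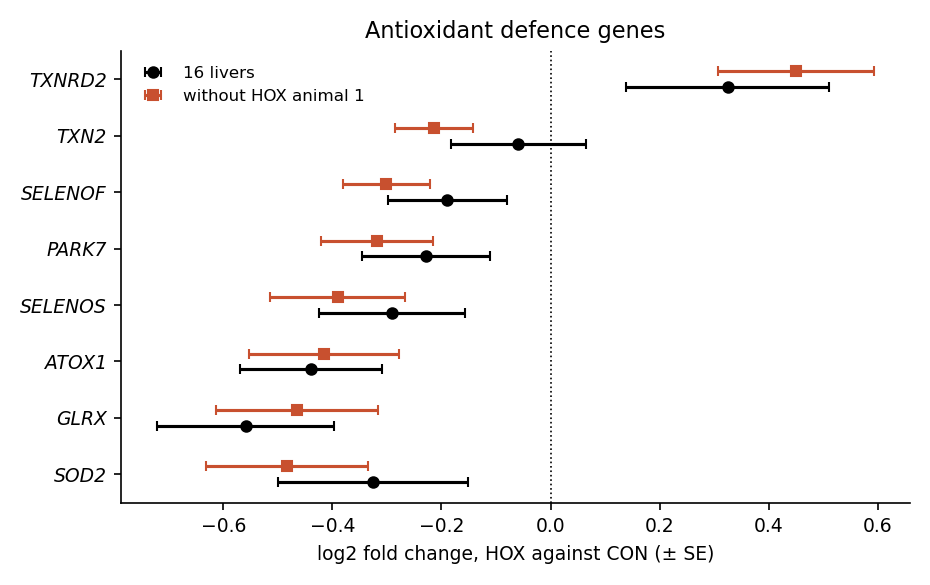
Log2 fold change of HOX against CON (± SE, edgeR) of the 8 antioxidant defence genes with all 16 livers (black circles) and without HOX animal 1 (red squares). TXN2 moves from −0.06 to −0.21 and SOD2 from −0.33 to −0.48 when that liver is left out, GLRX and ATOX1 lie below 0 in both fits, and TXNRD2 lies above 0 in both.

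HOX animal 1 was also high in many, but not all, of the other nuclear genes for mitochondrial proteins named in the same table. For the 10 named genes of the mitochondrial ribosome and translation, of 81 listed, the summed level was 583 CPM in that liver, 277 to 331 CPM in the other HOX livers and 342 to 418 CPM in CON. For the 10 named nuclear genes of the respiratory chain, of 72 listed, it was 402 CPM, 193 to 243 CPM and 243 to 339 CPM in the same order. *TUFM* (177 CPM) and *MRPS31* (92.9 CPM) made up much of the first sum. HOX animal 1 was the highest of the 16 livers in 6 genes of the first list and 7 of the second. It was the lowest in *MRPL16* (20.5 CPM) and under the CON mean in *MRPS23*, *COX15*, *NDUFAF1* and *PET100*. In *COX15*, *NDUFAF1* and *PET100* it was still the highest HOX liver. In log2 CPM it lay above the mean of the other HOX livers in 9 genes of the first list and 10 of the second. *SOD2* and *TXN2* in that liver exceeded the mean of the other HOX livers by 0.88 and 0.85 on the log2 scale, and 8.07% and 8.64% of all genes tested had an excess at least as large. The 3 named genes of mitochondrial DNA, of 13 listed (*COX1*, *COX3* and *ND4*), were not high in HOX animal 1. Their summed level there was 5614 CPM, within the 5054 to 6948 CPM of the other HOX livers and below the 6960 to 10373 CPM of CON. The study listed the named genes of all 3 lists as changed in these livers. Their directions and calls are therefore a description only. With all livers the median log2 fold changes of these 3 lists were −0.18, −0.18 and −0.44, in which 9 of 10, 10 of 10 and 3 of 3 genes were below 0. Without HOX animal 1 the medians were −0.33, −0.38 and −0.47, and every gene of the lists was below 0. In edgeR none of these genes was called either way, whereas DESeq2 called 2, 0 and 3 of them lower with all livers and all 10, 10 and 3 without HOX animal 1. Over all genes tested, DESeq2 called 1.61% lower with all livers and 3.56% lower without HOX animal 1.

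**Figure D5:**
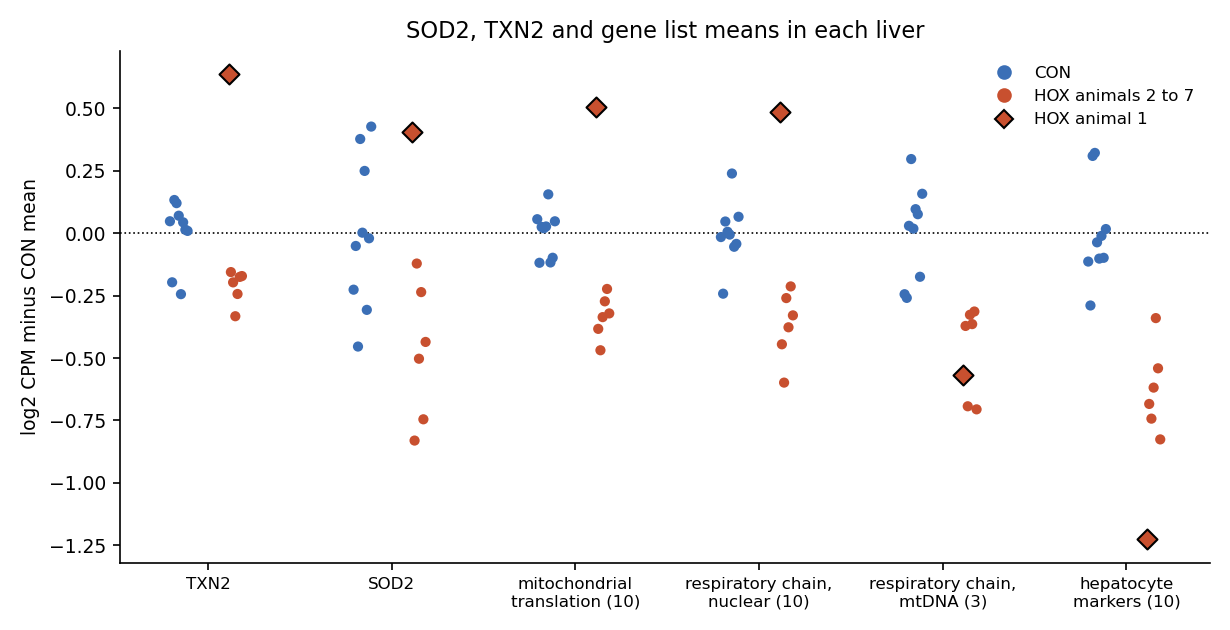
Log2 CPM minus the CON mean for TXN2, SOD2 and the mean of 4 gene lists (number of genes in brackets) in each CON liver (blue), in HOX animals 2 to 7 (red circles) and in HOX animal 1 (red diamond). HOX animal 1 lies above the CON mean for TXN2, SOD2 and the nuclear mitochondrial lists, and below it for the genes of mitochondrial DNA and for the hepatocyte markers, in the last of which it is the lowest liver.

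The markers of cell types were set beside the 2 genes. Those with a name in the table were chosen by the study as changed in these livers, so that their differences between the groups are a description only. Of 22 hepatocyte markers listed, 10 had a name in the table, and all 10 had a log2 fold change below 0 (median −0.49, and −0.39 without HOX animal 1), with a summed level of 21299 to 31954 CPM in CON and 15522 to 23981 CPM in the HOX livers other than animal 1. HOX animal 1 had 15368 CPM of these markers, the least of all livers, beside its high *SOD2* and *TXN2*. Its *AFP* (95.1 CPM) and *FGG* (7111 CPM) were above the means of the other HOX livers, 72.4 and 6576 CPM. All 4 named erythroid markers, of 17 listed, had a log2 fold change above 0 (median 0.73, and 0.81 without HOX animal 1), with a summed level of 170 to 533 CPM in CON and 259 to 772 CPM in HOX. HOX animal 1 had the 259 CPM, the lowest erythroid sum of its group, although its *CPOX*, at 76.6 CPM, was the HOX median. It was also lowest in the sum of the macrophage marker *CD163* and the endothelial marker *CD34*, at 83.2 CPM against 198 to 360 CPM in the other HOX livers and 262 to 430 CPM in CON. That sum was mostly *CD163*, at 61.9 CPM in HOX animal 1 against 254 CPM or more in CON. *CD34* was not low in HOX animal 1, at 21.3 CPM against 6.35 to 29.7 CPM in CON and a lowest HOX level of 15.6 CPM. Of the 4 stellate and fibroblast markers, 2 were lower and 2 higher in HOX by log2 fold change. Their sum in HOX animal 1 was 271 CPM, within the 224 to 366 CPM of the other HOX livers. That sum joined opposite extremes, since HOX animal 1 had the most *THBS4* of all livers (161 CPM) and the least *TGFBI* (26.0 CPM). The named markers were above 0 in every liver, and edgeR called none of them. DESeq2 called 6 of the 10 hepatocyte markers with all livers and all 10 without HOX animal 1. It called 0 and then 4 of the 4 erythroid markers, 1 and then 2 of the 2 macrophage and endothelial markers, and 3 of the 4 stellate and fibroblast markers in each fit. For comparison, DESeq2 called 1.61% of all genes lower and 1.15% higher with 16 livers. Without HOX animal 1 it called 3.56% lower and 2.6% higher. The part of the cell makeup in the levels of *SOD2* and *TXN2* was not tested.

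Over the livers, the named genes most like each of the 2 in log2 CPM differed between them and changed with HOX animal 1. These correlations pool CON and HOX, so that each holds the difference between the groups as well as the spread within them. For *SOD2* over 16 livers they were *RPS19BP1* (r = 0.84), *CALU* (r = 0.82), *DENND1C* (r = 0.77) and *CHID1* (r = 0.77), which ranked 1, 2, 9 and 10 among the other 8579 genes. Over 15 livers they were *SPP2* (r = 0.85), *ADK* (r = 0.84), *RPS19BP1* (r = 0.82) and *FKBP7* (r = 0.81), so that *RPS19BP1* was in both sets. For *TXN2* over 16 livers they were *SGPL1* (r = 0.89), the mitochondrial elongation factor *TUFM* (r = 0.86) and the mitochondrial ribosomal genes *MRPS31* (r = 0.85) and *MRPL13* (r = 0.84). Over 15 livers none of these was among the 4, which were *S100B* (r = 0.81), *DQX1* (r = 0.80), *EAF2* (r = 0.78) and the fetal hepatocyte protein *AFP* (r = 0.78). *SOD2* and *TXN2* had an r of 0.48 with each other over 16 livers, at which *TXN2* ranked 678 for *SOD2*, and of 0.32 over 15 livers, at which it ranked 1824.

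The study also measured SOD2 protein in fetal livers by western blot. Those protein values were not analysed here, and the levels above are of RNA only.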

How the data were processed

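The mRNA of 16 fetal livers was sequenced, and the authors deposited 1 table of raw counts, reads per gene and liver without normalization. The submitters' processing notes name STAR 2.7.10b, and the identifiers are Ensembl sheep identifiers. The counting rule and its use of strand are not given in the sources used here. Groups came from the labels. Symbols came from the gene table of the study, which pairs 487 identifiers with 438 symbols and lists genes changed in these livers. The authors' fold changes and *P* values in it were not used.

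Genes reaching 250 reads in 8 livers or more (8580 genes, 97.7% of reads) were fitted in edgeR 4.0.16 (TMM, quasi-likelihood F test, R 4.3.3) with group as the only term, with Benjamini-Hochberg adjustment over all of them and calls at an adjusted *P* below 0.15. The read minimum follows the wording of the study but leaves a different number of genes. The study states that it excluded no outliers, and it gives 7 HOX livers for its RNA sequencing. Of the 8 antioxidant genes named in its table, 6 were called by DESeq2 here only without HOX animal 1. Over all genes tested, DESeq2 called 1.61% lower and 1.15% higher with 16 livers. Without HOX animal 1 these shares rose to 3.56% and 2.6%. The reason for the difference from the study in those 6 genes was not tested. The procedure was tested on simulated data. Those data held no outlying library and had larger changes than those of *SOD2* and *TXN2*, so they do not cover that setting. DESeq2 1.42.0 and limma 3.58.1 (voom with quality weights), other scaling, other read minimums, sex, a replicate block, each sex alone and each liver left out were alternatives. Log2 CPM used a prior count of 2, and the *SOD2* to *TXN2* ratio a pseudocount of 0.5. Exact permutation tests were enumerated in Python 3.11.15 with numpy 2.4.6, and ranks came from scipy 1.17.1. Each library came from a different fetus.

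The members, lists and tests were chosen with earlier results of these data known. The text names *SOD2*, *TXN2*, each named gene of the antioxidant list, and the 4 named genes with the highest Pearson r to each member. Mitochondrial list and cell marker genes are given as groups, and *TUFM*, *MRPS31*, *MRPL16*, *MRPS23*, *COX15*, *NDUFAF1*, *PET100*, *COX1*, *COX3*, *ND4*, *AFP*, *FGG*, *CPOX*, *CD163*, *CD34*, *THBS4* and *TGFBI* were named after their values were seen. No genome of the build was used, so no coordinates are given.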

Additional observations from a re-analysis of the deposited data

Results flagged for a closer look

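In HOX, 3 measures had 1 liver far from the others by Dixon's criterion, which compares the gap to the nearest liver with the whole range, and in each it was HOX animal 1. For *TXN2* it had 6.25 log2 CPM, with the other 6 livers between 5.28 and 5.46 and a gap of 0.818 of the range. The mean of the 10 mitochondrial translation genes was 5.56 log2 CPM, against 4.59 to 4.84 in the others. The mean of the 10 nuclear respiratory chain genes was 5.07 log2 CPM, against 3.99 to 4.38. *SOD2* was not marked in this way in either group. Of 22 measures within a group that were examined, chance would mark about 1 in 20, and the 3 measures share 1 library and are not independent.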

How the results depend on the processing

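The log2 fold change of *SOD2* was below 0 under all 31 alternatives, from −0.48 to −0.23, and that of *TXN2* ran from −0.26 to 0.14. *TXN2* turned above 0 with scaling by library size alone (0.0093), in females alone (0.14) and without HOX animal 4 (0.0041). The 2 genes passed the threshold under 1 other choice, DESeq2 without HOX animal 1 (−0.48 and −0.21). Leaving out each liver in turn gave −0.48 to −0.24 for *SOD2* and −0.21 to 0.0041 for *TXN2*.

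With HOX animal 1 left out, second choices were added after seeing the data. *SOD2* ran from −0.55 to −0.41 and *TXN2* from −0.24 to −0.15, and the latter end came from scaling by library size alone. Besides DESeq2 for both genes, *SOD2* passed the threshold in edgeR without HOX animals 1 and 5 (−0.53). The weighted limma-voom fit left both genes only just above the threshold (adjusted *P* = 0.157 for *SOD2* and 0.151 for *TXN2*). The exact permutation tests (−0.48 and −0.21) were below 0.05, but their *P* values were not adjusted for the number of genes, so they are not set against that threshold.

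In edgeR 5 genes were called lower. DESeq2 called 138 (302 without HOX animal 1) and the weighted limma-voom fit 95. Scaling by library size, no read minimum and filterByExpr left 1 each, males alone 2 and females alone 0 (182 lower at an unadjusted *P* below 0.05). Leaving out each liver gave 1 to 25, and 25 came without HOX animal 5.

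The log2 ratio of *SOD2* to *TXN2* ran from −0.34 to −0.19 over the livers left out, and passed 0.05 without CON animal 3 (−0.34). The correlation in HOX ran from −0.30 to 0.82, with −0.30 without HOX animal 1, and was −0.73 without HOX animals 1 and 4. The male minus female difference of *SOD2* turned to 0.18 without HOX animal 1.

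CON and HOX share animal numbers 1 to 7. Same-numbered livers did not deviate together (r from −0.31 to 0.15, and 1 of 7 HOX livers correlated best with its own number). No pairing by number was seen. The HOX mean in that check held HOX animal 1, so the check cannot exclude a pairing. With a replicate block *SOD2* was −0.30, *TXN2* −0.09 and their ratio −0.21, and 0 genes were called lower (467 at an unadjusted *P* below 0.05). The causes of these changes were not tested.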
